A study of Danio rerio with 12 samples.

Results

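Chromosomes 1, 2, 5, 7, 10 and 13 were described in ATAC-seq peak lists of zebrafish melanoma and melanocytes. ATAC-seq inserts sequencing adapters into open DNA with a transposase, so regions where many cut sites pile up are called as peaks. The 6 chromosomes were chosen by their peak shares, as chromosomes on which some tumours gained and others lost relative to melanocytes. Members were the peak intervals on these chromosomes among the strongest intervals of each library, ranked by the −log10 p-value at the summit and cut to the length of the shortest list. They numbered 196769 of 694920 intervals over 12 libraries, against 498151 on the other 19 chromosomes.

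The MA group comprised 8 libraries (MA4 to MA11) of cells sorted by crestin:EGFP from melanomas of 8 adult fish (BRAFV600E/p53lf/lf/crestin:EGFP). The MC group comprised 4 libraries of mCherry-sorted skin melanocytes, with MC_Het4, MC_Het5 and MC_Het6 from BRAFV600E/+/p53+/lf/mitfa+/-/mitfa:mCherry fish and MC_Homo from 1 BRAFV600E/p53lf/lf/mitfa+/-/mitfa:mCherry fish. All fish thus carried human BRAFV600E and at least 1 loss-of-function p53 allele, and no library came from wild type melanocytes. The mCherry reporter was driven by the mitfa promoter inside a mitfa minigene construct, and crestin, which drives EGFP, is a neural crest gene that is switched on again in zebrafish melanoma. All MC libraries, MA4 and MA5 were sequenced in run 2, and MA6 to MA11 in run 3, so MC and run 3 were never found together. Ages of the fish were not given in the sources used here, and sorted cell identity was not checked against marker genes because no gene annotation of this assembly was used.

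The zebrafish genome is divided among 25 chromosomes, and p53 is the transcription factor that halts or kills cells with damaged DNA. Tumours without p53 often carry gained or lost chromosomes, as general background. The number of tags that a region yields depends both on how open it is and on how much of that DNA the sorted cells held, and peak lists cannot tell these apart.

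Libraries held 6.05 to 11.5 M tags in MA and 6.42 to 24.6 M in MC (M, mega), and the complete lists held 62916 to 93577 intervals in MA and up to 266537 in MC. Equal list length removed the difference in list size but not in depth. Narrow intervals of about 120 bp, a width in excess in every list, made up 5.99 to 8.75% of the equal-length lists in MA of run 3, 21.0 to 21.6% in MA of run 2 and 20.6 to 32.8% in MC. This width share therefore moved with the run within MA, and its part in the shifts of chromosome share was not tested beyond the values given below.

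Each chromosome's share of a library was divided by the mean share in MC, and the log2 of this ratio was taken as its shift (for an MC library, the mean of the other 3 was used). A shift of at least 0.2 was called a gain and one of at most -0.2 a loss. Among the 48 pairs of 1 MA library and 1 of the 6 chromosomes, 13 were gains, 10 were losses and 25 were neither. Over all 25 chromosomes, 21.5% of 200 such pairs were gains and 24.5% were losses, and the members' 27.1% and 20.8% lay close to these. The same shares chose the members, so no test was made. In MC, 0 of 24 pairs passed either limit, and the shifts stayed within 0.10 of 0. By the same limits 10 of the 25 chromosomes (40%) were gained in 1 or more MA libraries and lost in 1 or more others, the other 4 being chromosomes 20, 23, 24 and 25. In spread across MA (SD of the shift), the members ranked from 5 (chromosome 2) to 14 (chromosome 5) of 25, with chromosome 16 the most and chromosome 6 the least variable. The gains nearest to the limit were MA9 on chromosome 13 (0.20) and MA8 on chromosome 10 and MA7 on chromosome 2 (0.21 each), and the nearest pairs outside it were MA8 on chromosome 13 (0.16), MA4 on chromosome 10 (-0.16) and MA8 on chromosome 5 (0.13). On each of the 6 chromosomes 1 direction rested on 1 library, which was MA10 for the gain of chromosome 1 and the loss of chromosome 13, MA5 for the losses of chromosomes 2 and 5, MA11 for the gain of chromosome 7 and MA6 for the loss of chromosome 10. Without that library the chromosome would not have moved both ways by these limits.

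Summed over the 6 chromosomes, opposite shifts partly cancelled. The members took 28.6% ± 2.83 of the intervals in MA (SD, n = 8) and 27.7% ± 0.309 in MC (SD, n = 4). They ranged from 24.4% in MA5 to 32.7% in MA11, whereas MC ranged from 27.3 to 28%. MA5 had 3 losses and 0 gains, and MA11 had 3 gains and 0 losses. MA7, MA9 and MA10 each had 3 gains and 1 loss, MA8 had 1 of each, MA6 had 2 losses and MA4 had 1.

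**Figure D1:**
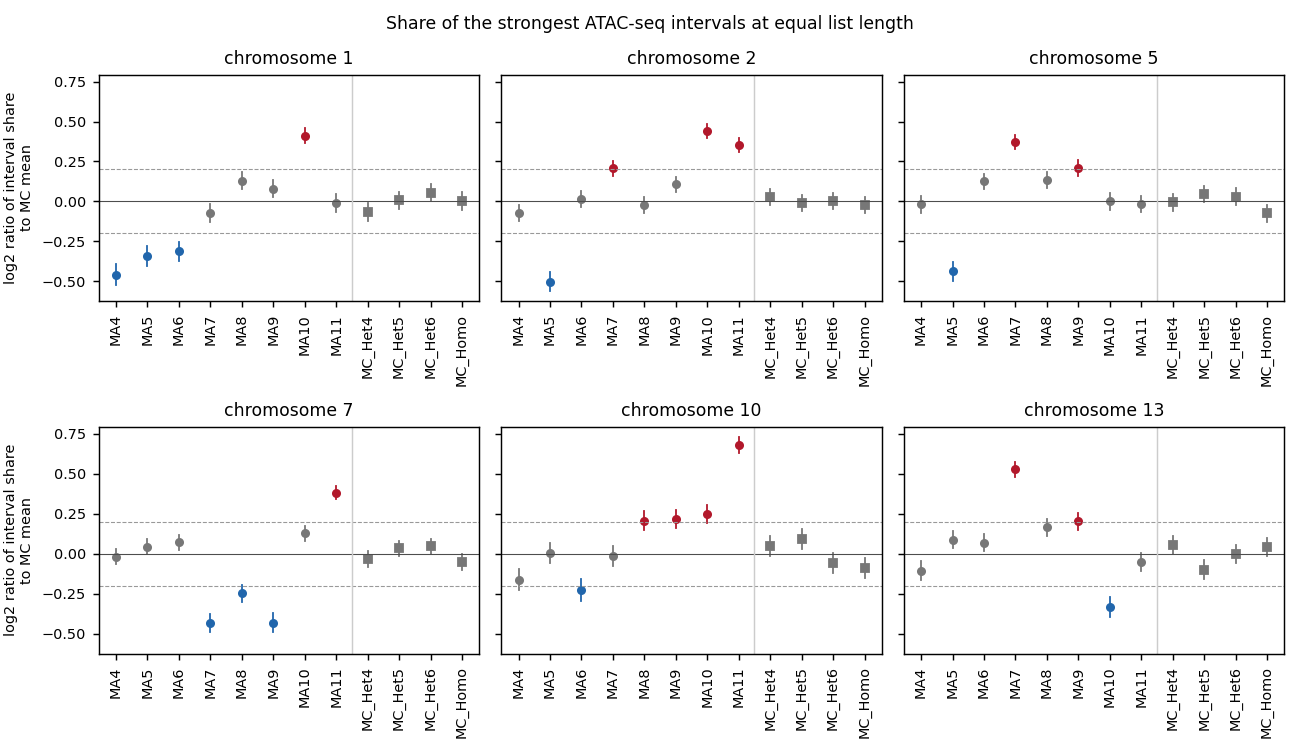
Shift of each of the 6 chromosomes (log2 ratio of interval share to the MC mean, y axis) in 8 MA libraries (circles) and 4 MC libraries (squares). Bars are 95% counting intervals, dashed lines mark 0.2 and -0.2, and red and blue points are gains and losses. MC points stay within 0.10 of 0, and MA points reach from -0.50 (MA5, chromosome 2) to 0.68 (MA11, chromosome 10).

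Chromosome 1 was lost in 3 libraries and gained in 1. Its share was 3.17% in MA4 (shift -0.46), 3.43% in MA5 (-0.34) and 3.50% in MA6 (-0.31), and 5.78% in MA10 (0.41), against 4.2 to 4.48% in MC. MA7, MA8, MA9 and MA11 had shifts of -0.07, 0.13, 0.08 and -0.01. The lowest and highest shares had 95% counting intervals (Wilson) of 3.03 to 3.31% in MA4 and 5.60 to 5.98% in MA10. Such intervals cover counting error only, here and below. The losses and the gain thus lay outside the MC range by more than counting error.

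Chromosome 2 was gained in 3 libraries and lost in 1. Its share was 7.28% in MA10 (shift 0.44), 6.87% in MA11 (0.36) and 6.20% in MA7 (0.21), and 3.79% in MA5 (-0.50), against 5.31 to 5.45% in MC. MA4, MA6, MA8 and MA9 lay between -0.07 and 0.11. The counting interval was 7.07 to 7.5% in MA10 and 3.64 to 3.95% in MA5. Of the 6 chromosomes MC varied least on this one, with an SD of the shift of 0.022 (n = 4), against 0.29 in MA (n = 8).

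Chromosome 5 was gained in MA7, with 6.32% of the intervals (shift 0.37), and in MA9, with 5.64% (0.21), and lost in MA5 with 3.60% (-0.44), against 4.7 to 5.0% in MC. The shifts in MA6 (0.13) and MA8 (0.13) fell below the limit, and MA4, MA10 and MA11 were within 0.02 of 0.

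Chromosome 7 was lost in 3 libraries and gained in 1. Its share was 4.09% in MA7 (shift -0.43), 4.09% in MA9 (-0.43) and 4.65% in MA8 (-0.25), and 7.19% in MA11 (0.38), against 5.37 to 5.65% in MC. The counting interval was 3.93 to 4.25% in MA7 and 6.98 to 7.40% in MA11. MA10 had a shift of 0.13, and MA4, MA5 and MA6 lay between -0.02 and 0.07.

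Chromosome 10 had the largest shift of the 6. It held 5.46% of the intervals of MA11 (shift 0.68, counting interval 5.28 to 5.65%), 4.05% in MA10 (0.25), 3.96% in MA9 (0.22) and 3.93% in MA8 (0.21), against 3.26 to 3.58% in MC. It was lost in MA6, with 2.91% (-0.23). This loss was the smallest of the 10, and MA4 (-0.16) fell short of the limit.

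Chromosome 13 was gained in MA7, with 6.03% (shift 0.53, counting interval 5.84 to 6.23%), and in MA9, with 4.81% (0.20), and lost in MA10, with 3.32% (-0.33, counting interval 3.18 to 3.47%), against 3.97 to 4.31% in MC. MA8 had a shift of 0.16, and MA4, MA5, MA6 and MA11 lay between -0.11 and 0.09.

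Windows of 5 Mb showed whether a shift covered a chromosome or a part of it. Of the windows on the 6 chromosomes, 74 held at least 50 intervals on average in MC and were used. A window was called at a log2 ratio of 0.3 or more in either direction. In MA, 112 of 592 pairs of library and window were gained and 101 were lost (18.9% and 17.1%). Over all 25 chromosomes 16.8% of 2208 were gained and 23.1% were lost. In MC, 0 of 296 were gained and 3 were lost. Of the 74 windows, MA11 gained the most (33) and MA5 lost the most (36), and MA4 and MA5 gained 0.

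Runs of at least 3 neighbouring windows called in the same direction, here termed stretches, numbered 27 in MA (13 gained and 14 lost) and 0 in MC. The other 19 chromosomes had 91 in MA and 0 in MC. In MA, stretches took in 155 of the 592 pairs of library and window on the members. On the other 19 chromosomes they took in 489 of 1616 such pairs, so stretches were not particular to the members. On the members 4 of the 27 stretches took in every window used on the chromosome, and on the other 19 chromosomes 11 of 91 did. Chromosome 1 was low in all 12 windows of MA4 (-0.70 to -0.31). In MA5, chromosome 2 was low in all 12 windows (-0.67 to -0.35) and chromosome 5 in all 15 (-0.78 to -0.33). Chromosome 10 was high in all 9 windows of MA11 (0.55 to 0.81).

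**Figure D2:**
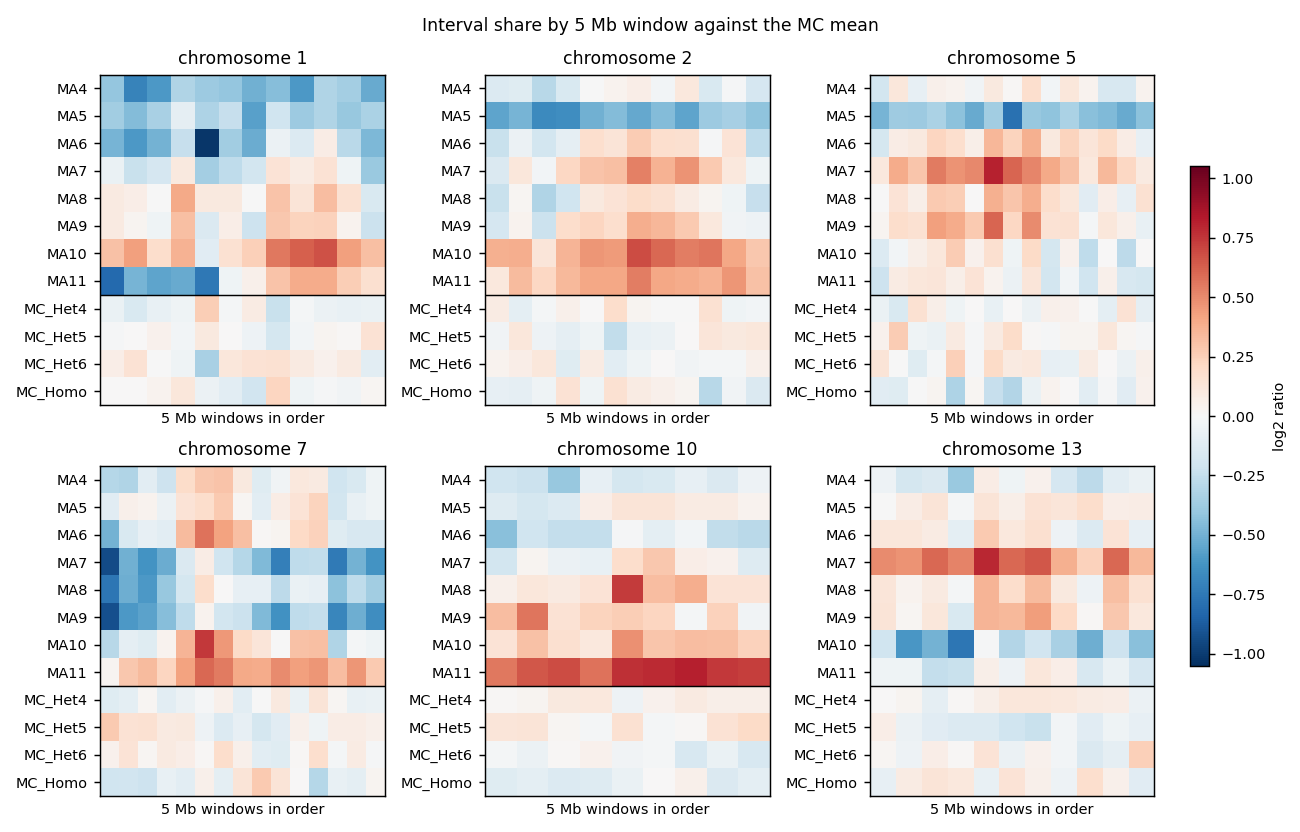
Log2 ratio of interval share to the MC mean (colour, red above and blue below) for the 5 Mb windows used on each chromosome (columns, in order along the chromosome) in 8 MA and 4 MC libraries (rows). Whole rows are blue for MA4 on chromosome 1 and MA5 on chromosomes 2 and 5 and red for MA11 on chromosome 10, and MA11 changes colour along chromosome 1.

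Other stretches took in a part of the chromosome. Outside a stretch the windows often kept its direction below the limit, as on chromosome 13, where all 11 windows were above 0 in MA7 (0.24 to 0.79) and all 11 below 0 in MA10 (-0.76 to -0.01). All 12 windows of chromosome 2 were above 0 in MA10 and MA11, and so were all 15 of chromosome 7 in MA11. On chromosome 1 of MA11, a stretch from 0 to 25 Mb was lost (mean -0.63, 5 windows) and one from 35 to 50 Mb was gained (mean 0.36, 3 windows), which cancelled to a net shift of -0.01. Summed over the stretch, the first 25 Mb held 594 intervals in MA11, against 890 to 940 in MC, and the 35 to 50 Mb part held 931 in MA11, against 687 to 756 in MC. The difference between the 2 parts was 1.0 in MA11, 0.03 to 0.48 in the other MA libraries and -0.05 to 0.05 in MC. Both parts were set by the stretches of MA11, so this is a description. MA11 was thus called neither gained nor lost on a chromosome of which 8 of 12 windows passed a limit. MA6 lost chromosome 1 from 0 to 15 Mb (-0.53) and from 20 to 35 Mb (-0.63), and MA5 from 0 to 15 Mb (-0.39) and from 40 to 60 Mb (-0.36). In MA5 all 12 windows of chromosome 1 were below 0 (-0.57 to -0.10) and 9 passed the limit. In MA6 11 of 12 were below 0. MA10 gained chromosome 1 from 35 to 60 Mb (0.52).

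On chromosome 2 the gained stretches lay from 15 to 55 Mb in MA10 (mean 0.51), from 15 to 60 Mb in MA11 (0.40) and from 25 to 45 Mb in MA7 (0.42). Outside them MA10 also passed the limit from 0 to 5 Mb and from 5 to 10 Mb (0.38 each) and MA11 from 5 to 10 Mb (0.33), so that each had 10 of 12 windows gained. On chromosome 5, MA7 gained from 15 to 55 Mb (0.52, 8 windows). On chromosome 13, MA7 gained from 0 to 40 Mb (0.56, 8 windows) and MA9 from 20 to 35 Mb (0.38), and MA10 lost from 5 to 20 Mb (-0.62). On chromosome 10, MA8 gained from 20 to 35 Mb (0.48).

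Chromosome 7 was lost at both ends in MA7 and MA9, from 0 to 20 Mb (-0.65 and -0.63) and from 60 to 75 Mb (-0.62 in both), and from 0 to 20 Mb in MA8 (-0.57). It was gained from 20 to 40 Mb in MA6 (0.41), from 20 to 35 Mb in MA10 (0.52) and from 20 to 70 Mb in MA11 (0.45). The 20 to 40 Mb part was therefore higher than the first 20 Mb in every MA library, by 0.18 to 0.62, whether or not the chromosome as a whole was gained. In MC this difference was -0.22 to 0.18, and 7 of 8 MA libraries exceeded every MC library. The limits of both parts were read off the MA stretches, which by itself favours such a difference. Parts compared in the same way on chromosomes 1, 5 and 13 also gave 7 of 8, so this was not particular to chromosome 7. Between pairs of MA libraries, the 15 window values of chromosome 7 had a median Pearson r of 0.85 (28 pairs, 0.61 to 0.98). On chromosomes 2, 13, 10, 5 and 1 the median r was 0.78, 0.68, 0.59, 0.57 and 0.54. These values describe windows that share libraries and a common MC mean, which by itself adds to r.

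The windows with the most extreme values differed in how many intervals they rested on. The highest was on chromosome 10 from 30 to 35 Mb in MA11, with 380 intervals, against 198 to 227 in MC (log2 ratio 0.81, counting interval 0.67 to 0.96). MA7 had 211 intervals on chromosome 5 from 30 to 35 Mb, against 106 to 134 in MC (0.81), and 268 on chromosome 13 from 20 to 25 Mb, against 144 to 167 in MC (0.79). MA10 had the highest windows of chromosomes 7, 2 and 1, with 286 intervals from 25 to 30 Mb (0.74, against 166 to 176 in MC), 430 from 30 to 35 Mb (0.68, against 257 to 280) and 471 from 45 to 50 Mb (0.67, against 287 to 303). The lowest was on chromosome 1 from 20 to 25 Mb in MA6, with 29 intervals, against 49 to 67 in MC. Its ratio of -1.02 had a counting interval of -1.54 to -0.50. The first 5 Mb of chromosome 7 held 115 intervals in MA7, against 197 to 253 in MC (-0.94). MA5 had the lowest windows of chromosomes 5 (57 intervals, against 83 to 108 in MC, -0.78) and 2 (140, against 216 to 236 in MC, -0.67), from 35 to 40 Mb and from 10 to 15 Mb. MA10 had 112 on chromosome 13 from 15 to 20 Mb, against 176 to 201 in MC (-0.76), and MA6 had 264 in the first 5 Mb of chromosome 10, against 335 to 382 in MC (-0.44).

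Over the 74 windows, some tumours had like patterns. MA7 and MA9 had an r of 0.84, MA8 and MA9 of 0.83, MA4 and MA6 of 0.80 and MA7 and MA8 of 0.71, whereas the median over 28 pairs of MA libraries was 0.21. The lowest was -0.27, between MA5 and MA10. MA4 and MA6 were of different runs and both low on chromosome 1. MA7, MA8 and MA9 were of run 3, and all were low on chromosome 7 and at 0.16 or more on chromosome 13.

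Tag height, which does not count intervals, was then set beside the shares. To remove the common pattern of MA, each library was set against the other libraries of its own type, at regions found in every list of that type (18985 in MA, 5312 of them on the 6 chromosomes, and 22349 in MC). This comparison was added after the shifts were seen. The pileup, the number of tags over the summit, was recovered from the deposited values, scaled to the library's median over all regions, and its median log2 ratio taken for each chromosome. It ranged from -0.78 to 0.86 over the 48 pairs of MA and from -0.05 to 0.07 over the 24 pairs of MC. Its sign matched that of the share against the other MA libraries in 45 of 48 pairs, and the points had a Pearson r of 0.97 (48 pairs that share libraries and, within a library, tags with the share). On the other 19 chromosomes it matched in 139 of 152 pairs, with an r of 0.92, close to the members. In MC the r was -0.04 over 24 pairs.

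**Figure D3:**
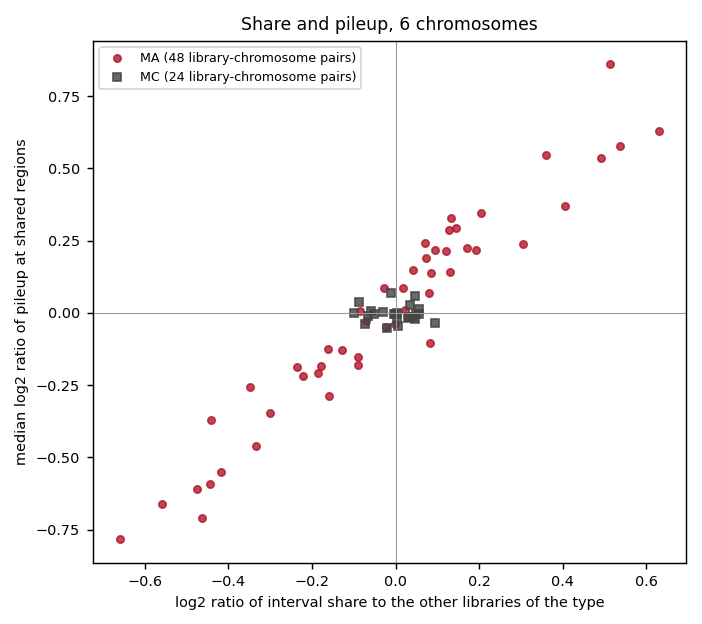
Median log2 ratio of pileup at regions found in every list of the type (y axis) against the log2 ratio of interval share (x axis), each library relative to the others of its type, for 48 MA pairs and 24 MC pairs of library and chromosome. MA points spread from -0.78 to 0.86 along the diagonal and MC points stay between -0.05 and 0.07 on the y axis.

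The largest values by this measure were those of chromosome 13 in MA7 (0.86), with 82.1% of 847 regions above the mean of the other MA libraries, and of chromosome 2 in MA5 (-0.78), with 22.0% of 1034 regions above it. Chromosome 1 was at -0.71 in MA4 and 0.58 in MA10, chromosome 5 at -0.66 in MA5 and 0.55 in MA7, chromosome 7 at -0.59 in MA7 and 0.54 in MA11, and chromosome 10 at -0.55 in MA6 and 0.63 in MA11. Centring on the other MA libraries puts some libraries above and some below 0 on any chromosome, so the presence of both signs is no result here. Chromosome 13 in MA10 was at -0.61. Against the other MA libraries, chromosome 7 lay at -0.71 to -0.47 in all 15 windows of MA7 and at 0.39 to 0.75 in all 15 of MA11. In MA5 and MA6 it was less even, at 0.01 to 0.48 and -0.06 to 0.51. MA5 had a median of 0.39 from 0 to 20 Mb and 0.05 from 20 to 40 Mb, whereas MA6 had 0.14 and 0.42. In MC, the windows of chromosome 7 ran from -0.53 to 0.23, both in MC_Het5. Along chromosome 1, MA11 ran from -0.46 to 0.41 over 11 windows in this measure, with a median of -0.30 in the first 25 Mb (198 regions) and of 0.27 from 35 to 50 Mb (232 regions). MC_Het5 also differed between these parts, at -0.51 (348 regions) and -0.01 (262 regions), and the other MC libraries lay between -0.06 and 0.12 in both. A contrast of this size in tag height was thus not particular to MA11, although no MC library showed it in interval share.

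**Figure D4:**
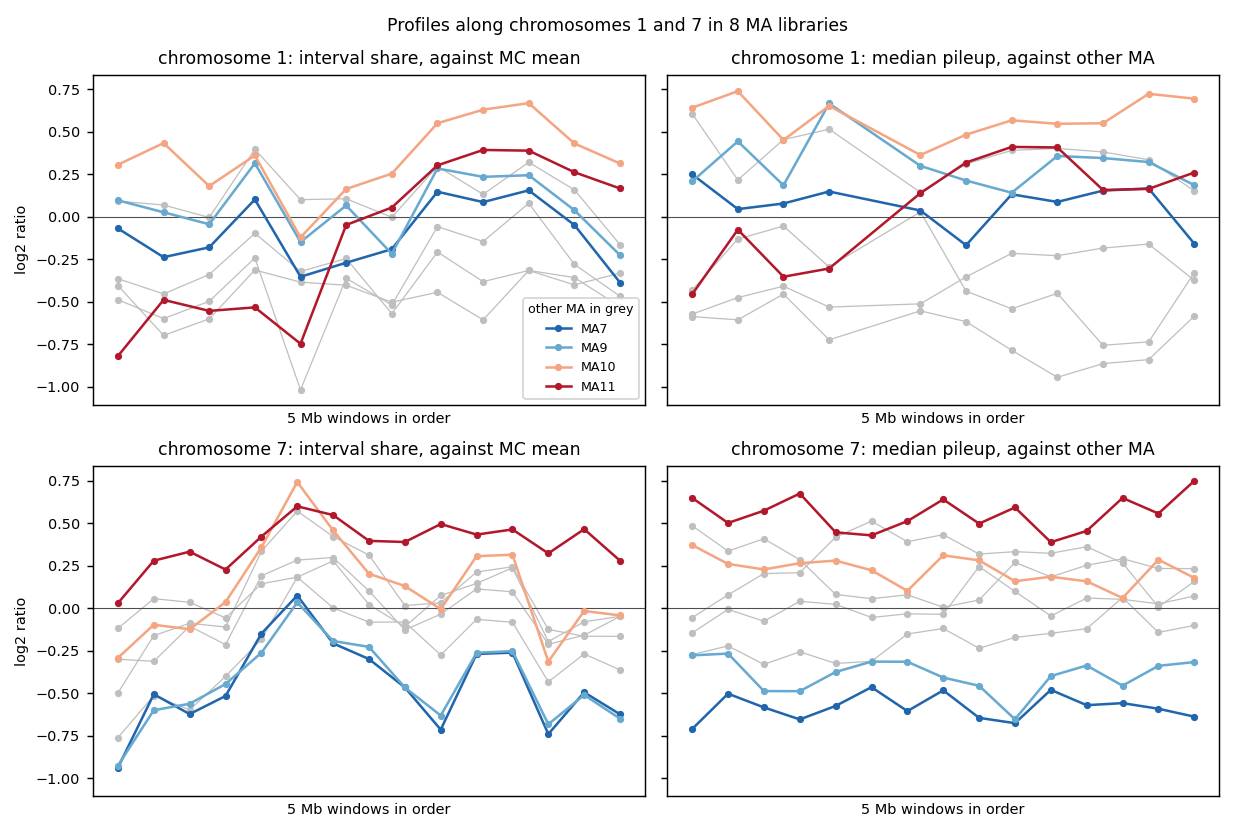
Log2 ratios by 5 Mb window (x axis, in order along the chromosome) on chromosomes 1 and 7 in 8 MA libraries, as interval share against the MC mean (left) and as median pileup against the other MA libraries (right, windows with 20 or more regions). On chromosome 7, MA7 and MA11 peak in the same window range on the left and keep to 1 side of 0 on the right (-0.71 to -0.47 and 0.39 to 0.75), and on chromosome 1 MA11 crosses 0 in both.

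At the 8298 regions found in all 12 lists, of which 2304 lay on the 6 chromosomes, the median pileup relative to MC had the sign of the shift in 23 of 23 called pairs of library and chromosome. In MA6 on chromosome 1 it did so narrowly, with a median of -0.07 and 49.1% of 348 regions above 0. The summed pileup at these regions had the opposite sign (0.019). MA11 on chromosome 7, the only gain of that chromosome, had a median of 0.05, with 51.8% of 438 regions above 0. This median lay within the MC range given below. On the other chromosomes the sign matched in 60 of 69 called pairs. The median log2 ratios ran from -0.86 to 1.31 on the members in MA and from -0.05 to 0.07 in MC. The 48 member pairs had an r of 0.73 with the shift and a slope of 1.19. Pairs that were not called could have medians as large as called ones. On chromosome 7 the median was -0.62 in MA4 (shift -0.02) and -0.64 in MA6 (0.07). It was -0.61 in MA8 and -0.59 in MA9, which lost this chromosome. MA5 and MA10, also not called there, were at -0.10 and -0.12. The size of the median thus does not set called pairs apart from uncalled pairs. Its sign did not always match the shift in uncalled pairs. On chromosome 7 it matched in MA4 but not in MA6. Uncalled pairs have smaller shifts by definition, so the sign of their shift is less certain.

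Gains and losses were present among the strongest intervals. The called pairs were set by the shares of the whole lists. Medians of matching sign in parts of those lists therefore follow in part from that choice. When each list was split into 5 parts by rank, the strongest of the 5 parts gave a median shift of 0.37 over the 13 gained pairs (0.22 to 0.77) and -0.52 over the 10 lost pairs (-1.02 to -0.36), against -0.06 to 0.09 in MC. In parts 2, 3 and 4 by rank the medians were 0.29, 0.20 and 0.33 over the gained pairs and -0.28, -0.32 and -0.21 over the lost pairs. MC ranged from -0.19 to 0.27 in part 2 and from -0.32 to 0.31 in part 3. In part 3 the median of the gained pairs thus lay within MC, and that of the lost pairs lay at its edge. Part 4 held values of the opposite sign in both (gained pairs down to -0.03, lost pairs up to 0.03), and MC ranged from -0.29 to 0.29 there. The weakest part gave 0.39 (-0.08 to 0.84) and -0.50 (-1.29 to -0.09), but MC then ranged from -0.42 to 0.56. Intervals seen in melanocytes made up a lower share of gained chromosomes than of the others. Of the intervals of the 13 gained pairs a median of 75.9% overlapped an interval of any complete MC list (by at least 1 bp), which was below the other chromosomes of the same library in 13 of 13 pairs (differences of -8.31 to -0.616 percentage points). In the 10 lost pairs the median was 82.5%, above the other chromosomes in 10 of 10 by 1.1 to 7.39 points. Of the 25 pairs that were neither, 16 lay below, with a median difference of -0.305 points (-2.54 to 3.92). The 75.9% and 82.5% come from different sets of libraries, since MA4 and MA5 held losses only. On the other chromosomes the overlap was 83.8% in MA4, 85.2% in MA5 and 77.7 to 80.7% in run 3. Median interval width differed from that of the other chromosomes of the same library by a median of 5 bp in the gained pairs (0 to 13) and of -16.5 bp in the lost pairs (-44 to 0). The lost pairs of run 2 (MA4 and MA5) were at -44 to -23 bp and those of run 3 at -20 to 0 bp. The overlap and width come from the same lists that set the gains and losses, so these are descriptions.

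Among regions found in all 12 lists, the one with the best mean rank was taken for each chromosome. The region at chr5:52427728-52428002 (GRCz11) ranked 1 or 2 in every MA library and 1 in every MC library. Its pileups were 1793 (MA4) to 2749 (MA8) tags in MA and 2315 (MC_Homo) to 5197 (MC_Het5) in MC. Tag counts at these regions are not scaled for depth, and MA8 (11.5 M tags) and MC_Het5 (24.6 M) were the deepest libraries of their types. The next regions were chr13:6219100-6219298, which ranked 6 to 7 in MA and 6 to 9 in MC, and chr7:73330278-73330505, which ranked 10 to 14 in MA and 10 to 13 in MC. In MA7, the library that gained most on chromosome 13 and lost most on chromosome 7, these had 1282 and 960 tags. The chromosome 13 region had more tags than the chromosome 7 region in every MA and MC library. Scaled and relative to MC, their log2 ratios in MA7 were -1.29 and -1.41, both below MC. The 2 counts therefore do not show the gain or the loss. The others were chr2:14104263-14104385 (rank 14 to 27 in MA and 17 to 49 in MC), chr10:41441574-41441895 (33 to 55 in MA and 29 to 39 in MC) and chr1:59010010-59010430 (17 to 78 in MA and 61 to 83 in MC). The first 3 regions thus ranked 14 or better in every library. The genes at these regions were not looked up, since no annotation of GRCz11 was used.

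Whether chromosomes moved together was then asked across the 8 MA libraries. Pearson r was computed for 15 pairs of the 6 chromosomes, with two-sided exact permutation tests over all pairings of libraries and Benjamini-Hochberg adjustment over all 300 pairs of 25 chromosomes. Shares sum to 100%, which builds in a negative tendency. Only chromosomes 7 and 13 passed an unadjusted 0.05, with r = -0.74 (exact permutation p = 0.0337, adjusted p = 0.694, n = 8). Their rho was -0.81 (exact permutation p = 0.0218, adjusted p = 0.709). Shifts of opposite sign were present in 5 of 8 libraries, led by MA7 (chromosome 7 at -0.43 and chromosome 13 at 0.53). Without MA7 and MA9, the libraries farthest from the median on chromosome 7, r was -0.45 (exact permutation p = 0.350, n = 6). Without MA7 alone r was -0.61 (exact permutation p = 0.149), and without MA9 alone -0.75 (exact permutation p = 0.0565). The relation thus leaned on MA7 more than on MA9. Leaving out extreme libraries also narrows the range, which by itself weakens r. Over all pairs, 20 of 300 (6.67%) passed an unadjusted 0.05 and 0 of 300 (0%) an adjusted 0.05, with a lowest adjusted p of 0.470 (exact permutation tests).

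**Figure D5:**
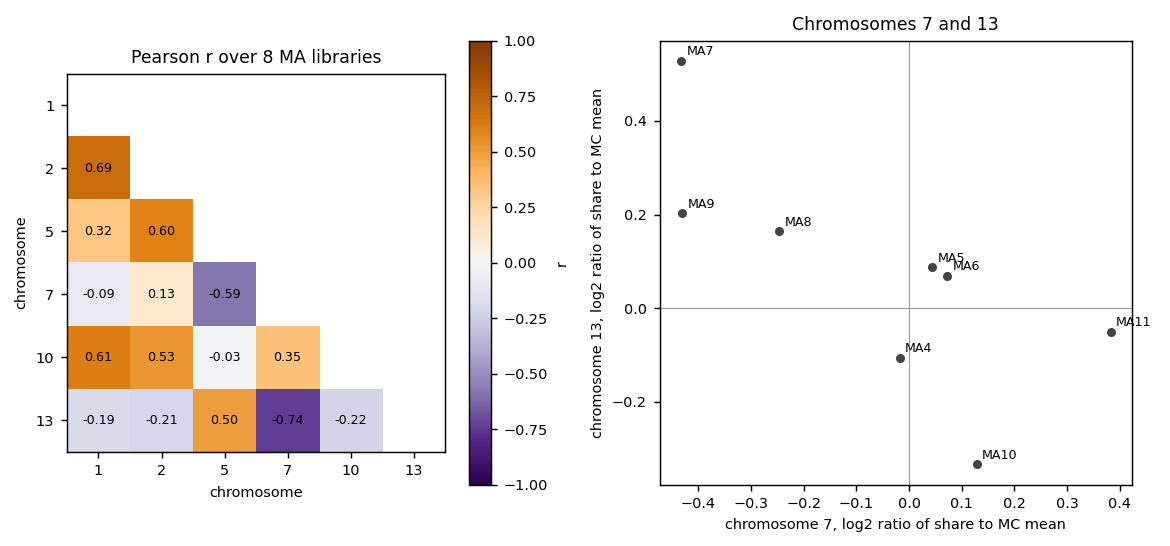
Left, Pearson r of the shifts of each pair of the 6 chromosomes over 8 MA libraries. Right, shift of chromosome 13 against that of chromosome 7 (log2 ratios to the MC mean), 1 point per MA library. The values run from -0.74 (chromosomes 7 and 13) to 0.69 (chromosomes 1 and 2), and MA7 and MA9 lie at the upper left on the right.

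The highest r was that of chromosomes 1 and 2, at 0.69 (exact permutation p = 0.0536, adjusted p = 0.694, n = 8; rho 0.67, exact permutation p = 0.0831). Their shifts had the same sign in 4 of 8 libraries, and without MA10 and MA4 r was 0.58 (exact permutation p = 0.235, n = 6). Over the 15 pairs the median r was 0.13, with 8 positive and 7 negative. Within run 3 (n = 6), r was -0.76 for chromosomes 7 and 13 (exact permutation p = 0.0667) and 0.55 for chromosomes 1 and 2 (exact permutation p = 0.268). In that run 2 of the 15 pairs passed an unadjusted 0.05 (exact permutation tests), which were chromosomes 5 and 13 (r = 0.93, p = 0.00972) and 5 and 7 (r = -0.87, p = 0.0125), beside 22 of all 300 (7.33%), and no adjusted p was below 0.663. Over all 8 libraries these pairs had r = 0.50 (exact permutation p = 0.199) and -0.59 (exact permutation p = 0.119). MA5 of run 2, low on chromosome 5, was the library that weakened the pair of chromosomes 5 and 7, which had r = -0.83 without it (exact permutation p = 0.0161, n = 7). Run 2 held only 2 MA libraries and gives no value.

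Run and shift could be compared only within MA. By mean shift in run 3 minus run 2, chromosome 2 differed by 0.47 and chromosome 5 by 0.37, and both run 2 libraries lay below all 6 of run 3 (exact permutation with 28 possible splits, two-sided p = 0.0357, the smallest they can give; adjusted p = 0.298 over 25 chromosomes). On chromosome 5 the highest run 2 value, -0.02 in MA4, was barely below the lowest of run 3, -0.02 in MA11. Without MA5 the differences were 0.26 and 0.16 (exact permutation p = 0.286 for both). Of all 25 chromosomes 3 (12%) passed an unadjusted 0.05 and 0 (0%) an adjusted 0.05. Chromosome 1 differed by 0.44 (exact permutation p = 0.0714), and chromosomes 10, 13 and 7 by 0.27, 0.11 and -0.10 (exact permutation p = 0.357 to 0.786). Of the 13 gained pairs 13 were of run 3 and 0 of run 2. Losses numbered 6 of 36 in run 3 and 4 of 12 in run 2. Over all 25 chromosomes, gains were 23.3% of 150 pairs in run 3 and 16% of 50 in run 2, and losses 27.3% and 16%. Run 2 thus also held gains, on the other 19 chromosomes (8 of 38 pairs). Over the 8 MA libraries the share of narrow intervals had an r of -0.67, -0.69 and -0.73 with the shifts of chromosomes 1, 2 and 5, and of 0.21, -0.32 and -0.24 with those of chromosomes 7, 10 and 13, a description in which width share and run coincide. After those intervals were left out, the difference between runs was 0.54 on chromosome 2 and 0.47 on chromosome 5.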

How the data were processed

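Peak lists of 12 ATAC-seq libraries were used, with groups, replicates and runs from the sample labels. According to the study's methods, the authors trimmed reads with CutAdapt, aligned them to GRCz11 with BWA, kept proper pairs with a mapping quality over 30, removed duplicates and called peaks per library with MACS2 without control (effective genome size 1e+09 bp, shift -50 bp, extension 100 bp, duplicate limit 999). Versions were not given in the sources used here. The fold enrichment (a ratio of pileup to local background, 1 added to each) and the −log10 p and q at the summit were used as the authors deposited them. Calling each library alone makes list length follow depth.

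Lines that differed only in summit were merged, and the 57910 strongest intervals on 25 chromosomes were kept per library. Pileup and background were solved from fold and p by the Poisson tail (at least 99.998% whole within 0.05), and tags came from the most frequent background. Windows needed an MC mean of 50 intervals. Tests were two-sided exact permutation tests with Benjamini-Hochberg adjustment, run in Python 3.11.15 with NumPy 2.4.6, pandas 2.3.3 and SciPy 1.17.1. Shares, stretches, pileups and tests were tested on simulated data. The members and lists were chosen with earlier results of these data known. Named windows were the highest and lowest of each chromosome and all stretches, named pairs those under an unadjusted 0.05 and the extremes of r, and named regions the best mean rank per chromosome among regions in all 12 lists. The chromosome pairs named within run 3 were chosen after their values were seen. A list of melanoma genes and cell type markers was not read, for lack of an annotation of this assembly.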

Additional observations from a re-analysis of the deposited data

Results flagged for a closer look

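The shift of chromosome 2 (mean log2 ratio in MA of run 3 minus MA of run 2) was 0.47, and that of chromosome 5 was 0.37. Both were noted because the difference between runs passed an unadjusted 0.05 (exact permutation with 28 possible splits, two-sided p = 0.0357 for each, the smallest they can give), although neither passed adjustment over 25 chromosomes (adjusted p = 0.298). Without MA5 they were 0.26 and 0.16. Dixon's test flagged no library among the 8 MA libraries on any of the 6 chromosomes. These chromosomes were chosen from the same shifts for moving both ways, which widens the range that the test divides by. It therefore cannot decide whether a library stood apart.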

How the results depend on the processing

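Of 441 recomputed shifts of the 23 called pairs of library and chromosome over 21 alternatives, 351 moved by less than the SD of MC, 89 moved by more and 1 changed sign (MA6 on chromosome 1, 0.019 by summed pileup at regions in all 12 lists). A shift depends only on its own library and on MC. Leaving out another MA library, or keeping run 2 only, which holds all MC libraries, could therefore not change it. Such fixed values are counted among the 351, so that number overstates how stable the shifts were. With the 10000 strongest intervals, gained windows were 10, lost windows 23 and stretches 0. The minimum MC mean of 50 intervals per window was kept for these shorter lists, so fewer windows qualified. How many did is not given here. These counts therefore cannot show whether the strongest intervals lacked stretches. With run 2 libraries only, gained and lost pairs on the 6 chromosomes were 0 and 4, gained and lost windows 0 and 52, and stretches 5. A chromosome threshold of 0.3 left 7 gained pairs. Windows of 10 Mb gave 54 gained, 51 lost and 14 stretches, and a window threshold of 0.5 gave 36, 42 and 11. The mean of the other MA libraries as reference, chosen after seeing the data, gave 8 gained pairs. With each library left out in turn there were 10 to 13 gained pairs, 7 to 10 lost pairs, 79 to 116 gained windows, 65 (without MA5) to 105 lost windows and 22 to 28 stretches, and 0 adjusted chromosome pairs or run differences throughout (exact permutation tests). The cause of these changes was not tested, apart from the fewer libraries, windows or intervals that the alternatives hold. No paired analysis was possible because the MA and MC_Het libraries that share numbers came from different fish, and the shift against MC has no test. The number of intervals in a window limits the smallest shift that a window can show.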
